A study of Mus musculus with 22 samples.

Results

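The T cell receptor alpha segments are the variable genes (Trav), the joining segments (Traj) and the constant gene (Trac) that make the alpha chain of the receptor. All genes whose mouse symbol starts with Trav or Traj or is Trac were taken, without 9 symbols holding -dv, whose segments alpha and delta chains share. They came to 154 of the 43430 genes listed, namely 94 Trav (5 of them annotated as pseudogenes), 59 Traj (9 of them pseudogenes) and Trac. RNA was sequenced from sorted thymocytes that carry CD45.1, CD4 and CD8, the double-positive stage, in 22 libraries of mice with floxed alleles of E2a, the gene Tcf3 that encodes the E proteins E12 and E47.

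The VcKO group at 4 weeks of age held 3 libraries of VavCre E2aF/F mice, set against 3 libraries of E2aF/F mice, called WT (V). The LcKO group at 4 weeks held 3 libraries of LckCre E2aF/F mice, set against 3 of E2aF/F mice, called WT (L). The TPT group, labelled 8 weeks, held 4 libraries of VavCre E2aF/F mice that were irradiated at a sublethal dose and given wild-type bone marrow as competitor, with cells taken 4 weeks after the transplantation. The VcKO group at 8 weeks held 3 libraries of untreated VavCre E2aF/F mice, and both 8-week groups were set against the same 3 libraries of E2aF/F mice, WT (V). All 7 groups carry the floxed E2a alleles, and the labels name no Cre for the controls. Vav-Cre acts in all blood lineages from the stem cell on, whereas Lck-Cre starts within the early T lineage. Replicates are numbered in the labels with no word on animals, and p-values therefore reflect only how libraries of a group vary. The labels do not say which cells of a TPT mouse carried CD45.1.

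Values are FPKM, fragments per kilobase of gene, scaled to the fragments of the library. The low values of Traj segments were whole multiples of the value of 1 read, which gave depths of 5.49 to 37.5 M reads (1 M is 1e6) per library and 263 to 3412 reads in the whole J array. Tcf3 was at 1.15 to 1.39 FPKM in VcKO against 6.39 to 7.47 FPKM in control libraries at 4 weeks, at 1.20 to 1.33 FPKM in LcKO against 6.98 to 8.22 FPKM in their controls, and at 1.21 to 2.32 FPKM in TPT and 1.23 to 2.13 FPKM in VcKO against 7.49 to 7.59 FPKM in controls at 8 weeks. A list of 10 markers of double-positive thymocytes, among them Cd4, Cd8a and Rag1, was present in every group, none of them at 0. Its summed level was 3317 to 3967 FPKM in VcKO against 4608 to 4756 FPKM in controls at 4 weeks, 4225 to 4426 FPKM in LcKO against 4559 to 4772 FPKM in controls, and 1378 to 3464 FPKM in TPT and 2210 to 2479 FPKM in VcKO against 4577 to 4948 FPKM in controls at 8 weeks.

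The Tcra locus is assembled at the double-positive stage, when the Rag recombinase joins a V segment to a J segment and removes the DNA between them. The first joins tend to use V segments near the J array and J segments at its 5′ end, close to the T early alpha promoter. While a thymocyte lives on without a selected receptor, further joins replace the first one. They reach V segments farther away and J segments nearer the constant gene. Joins of distal V and 3′ J segments thus mark late rounds. The RNA level of a J segment is not a count of its joins. E proteins such as E2a act in the same thymocytes and are known regulators of the Rag genes. All members lie on the plus strand of chromosome 14. In GRCm38 (mm10), Trac lies at chr14:54220521-54224206. The Trav members span 1792.593 to 357.411 kb before the start of Trac, and the Traj members 65.516 to 1.707 kb before it. The members were ranked by position and cut into 3 sets of near equal number: 32 distal, 31 middle and 31 proximal Trav, and 20 5′, 20 middle and 19 3′ Traj, the 3′ ones lying next to Trac.

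The following V segments carry the comparison of the array's ends, since reads can tell most of them from their neighbours. Each line gives the last 60 bases of the annotated segment, where it joins the J segment, in lower case from 5′ to 3′. Capitals mark TANNNCTG, searched on the coding strand in the last 40 bases, which holds the codons of the conserved tyrosine and cysteine near the end of the V domain; 94 of 94 Trav members hold it (100%).
Trav1: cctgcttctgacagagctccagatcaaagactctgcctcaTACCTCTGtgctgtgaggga
Trav2: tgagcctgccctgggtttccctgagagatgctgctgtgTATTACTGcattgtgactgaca
Trav5-1: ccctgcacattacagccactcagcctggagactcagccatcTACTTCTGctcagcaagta
Trav6-1: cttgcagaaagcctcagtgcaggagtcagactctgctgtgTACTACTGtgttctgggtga
Trav8d-2: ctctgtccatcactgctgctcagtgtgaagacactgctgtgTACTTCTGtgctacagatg
Trav13-2: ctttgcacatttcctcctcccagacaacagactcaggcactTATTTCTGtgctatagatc
Trav17: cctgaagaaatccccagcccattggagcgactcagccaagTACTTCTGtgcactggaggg
Trav20: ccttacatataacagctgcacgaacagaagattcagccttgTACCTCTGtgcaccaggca
The first 4 lines are distal segments, Trav1 (chr14:52427928-52428876) being the farthest from Trac, with Trav2 (chr14:52567198-52568051), Trav5-1 (chr14:52622566-52623082) and Trav6-1 (chr14:52638515-52638962) next in the list. Trav8d-2 (chr14:53042428-53042891) lies in the middle set. Trav13-2 (chr14:53634829-53635399), Trav17 (chr14:53806639-53807115) and Trav20 (chr14:53863110-53863661), the Trav member nearest to Trac, are proximal.

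J segments are short, with a median of 61 bases against 376.5 bases for Trav. The lines below show segments at the 5′ end (Traj61 at chr14:54155005-54155076 and Traj58 at chr14:54157280-54157342), a middle one (Traj39 at chr14:54179962-54180024) and segments near Trac (Traj18 at chr14:54200777-54200842, Traj7 at chr14:54211470-54211528 and Traj2 at chr14:54217836-54217901), because the data separate these places. Capitals mark the first TTNGG followed by any 4 bases and GG on the coding strand, a pattern written for the phenylalanine-glycine codons of J segments. Reading frame was not checked, so a marked stretch need not be those codons, as in Traj7, which holds 2 matches.
Traj61: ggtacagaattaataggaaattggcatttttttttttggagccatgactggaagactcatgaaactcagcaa
Traj58: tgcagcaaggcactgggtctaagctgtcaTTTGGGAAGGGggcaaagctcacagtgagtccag
Traj39: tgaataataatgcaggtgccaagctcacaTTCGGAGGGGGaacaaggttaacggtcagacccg
Traj18: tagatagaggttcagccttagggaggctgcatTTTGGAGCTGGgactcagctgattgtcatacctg
Traj7: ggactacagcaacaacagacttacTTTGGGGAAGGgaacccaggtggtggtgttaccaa
Traj2: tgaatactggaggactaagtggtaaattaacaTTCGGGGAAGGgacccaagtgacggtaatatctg
The motif is in 43 of the 50 Traj genes (86%) and in 2 of the 9 Traj pseudogenes (22.2%), or 45 of 59 in all (76.3%). Traj61, a pseudogene, is without it. Sequences are of the GENCODE M21 annotation on GRCm38.

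Many Trav members are near copies of each other, from duplicated blocks of the array whose copies carry the suffix d or n (54 of 94). Of the 94, 36 share their whole sequence with another annotated Trav and 81 have one of at least 95% identity. A value of such a member is uncertain, since reads could have been given to a copy or to none. The other 13 members were therefore also summed alone, a choice made after values were seen. They are the distal Trav1, Trav2, Trav5-1, Trav6-1 and Trav6-2, the middle Trav8d-2, Trav8n-2 and Trav13n-4, and the proximal Trav8-2, Trav17, Trav18, Trav19 and Trav20. Some lie just under the cut: Trav6-1 and Trav6-2 share 93.8%, and Trav8n-2 and Trav8-2 share 94.96%, so their reads are not fully distinct. No source used here gives whether reads were counted by strand. In all, 27 Trav members stayed under 1 FPKM in every library, and 1 was at 0 throughout.

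Trac was lower in every knockout and TPT library than in any of its controls. Trac, whose exons every alpha chain shares, was at 553, 378 and 575 FPKM in VcKO libraries at 4 weeks, against 775, 749 and 749 FPKM in controls. The groups did not overlap, yet the adjusted p of 0.0566 (limma, log2 change −0.62, SE 0.167) missed the threshold of 0.05. In LcKO libraries Trac was at 692, 690 and 667 FPKM, against 801, 718 and 860 FPKM in controls, again without overlap, with a log2 change of −0.21 and an adjusted p of 0.291 (limma). At 8 weeks it was at 499, 439, 505 and 353 FPKM in TPT libraries and at 502, 632 and 506 FPKM in VcKO libraries, against 986, 1044 and 987 FPKM in their shared controls. TPT and VcKO thus both lay below every control, at overlapping Trac levels with means of 449 FPKM in TPT and 547 FPKM in VcKO. Trac fell by 1.18 on the log2 scale in TPT (SE 0.183, limma adjusted p = 0.00525) and by 0.89 in VcKO (SE 0.196, limma adjusted p = 0.0259). The VcKO call held in 5 of 10 fits that left out 1 library, with a largest limma adjusted p of 0.117. Fold changes are on the scale of log2(FPKM + 1), which understates those of low members. In bulk RNA, fewer cells with a rearranged locus and less RNA per cell cannot be told apart.

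Summed over all 94 Trav, the level was 174, 109 and 173 FPKM in VcKO against 300.5, 289 and 272 FPKM in controls at 4 weeks. In LcKO libraries it was 272, 278 and 268 FPKM, against 302, 268 and 336 FPKM in controls, which overlap. At 8 weeks the sum was 239, 68.6, 121 and 83.5 FPKM in TPT and 124, 106 and 313 FPKM in VcKO, against 433, 435 and 412 FPKM in controls. In the VcKO library with 313 FPKM, replicate 3, Trav13-2 alone gave 215 FPKM. The summed Traj level behaved less evenly: 832, 1248 and 969 FPKM in VcKO against 1813, 1182 and 1335 FPKM in controls at 4 weeks, which overlap. At 8 weeks it was 337, 434, 1545 and 588 FPKM in TPT and 861, 1198 and 760 FPKM in VcKO, all below the 1618, 2273 and 1644 FPKM of controls.

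**Figure D1:**
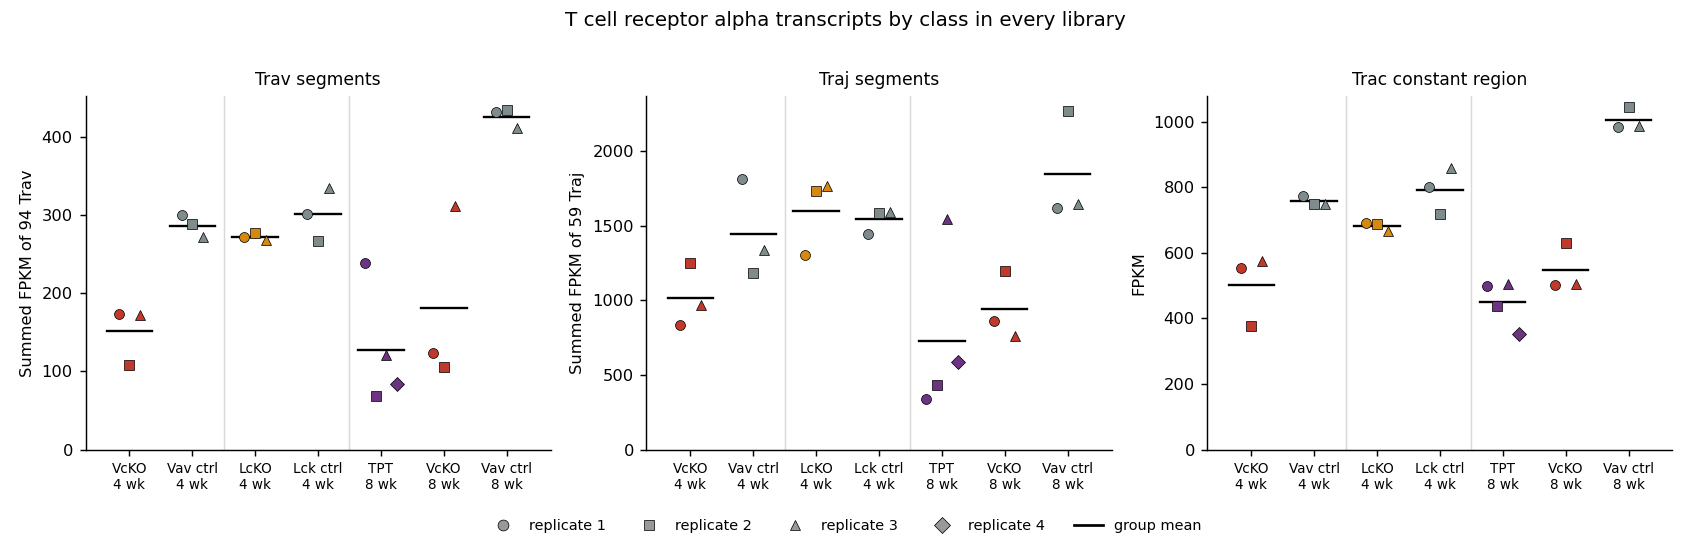
Summed FPKM of the 94 Trav (left), summed FPKM of the 59 Traj (middle) and FPKM of Trac (right), on the vertical axes, for each library of the 7 groups on the horizontal axes; each symbol is a library, the shape its replicate number and the bar the group mean. Trac lies at 353 to 632 FPKM in the 8-week TPT and VcKO libraries, below the 986 to 1044 FPKM of controls, and the Trav sum of VcKO replicate 3 at 8 weeks, 313 FPKM, stands above the other 2 libraries of its group.

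At 4 weeks, V segments of the distal end fell in VcKO thymocytes, whereas 1 proximal segment rose. Trav2 was at 1.89, 2.37 and 2.16 FPKM in VcKO, against 11.3, 10.3 and 8.62 FPKM in controls. All 3 VcKO libraries lay far under the lowest control, with a log2 change of −1.81 (SE 0.107, limma adjusted p = 0.000766). Trav5-1 was at 2.06, 0.468 and 1.39 FPKM in VcKO, against 10.4, 8.95 and 8.17 FPKM in controls. Trav6-1 was at 2.09, 0.190 and 1.91 FPKM in VcKO, against 8.498, 5.75 and 6.63 FPKM in controls. Both reached 1 FPKM in fewer than 3 VcKO libraries and needed their controls to pass the filter on low values, which ties the passing to the difference, so their levels are given without a fold change. No other annotated Trav shares 95% of the sequence of these 3 genes. Trav3-1, also distal and among the strongest V segments, kept more of its level: 8.70, 8.43 and 8.01 FPKM in VcKO, against 18.5, 14.9 and 17.0 FPKM in controls, and a log2 change of −0.92 (limma adjusted p = 0.00251). The proximal Trav3-4 shares 96.6% of the sequence of Trav3-1, so the value of Trav3-1 is uncertain. The farthest member, Trav1, was at 0.925, 0.0920 and 0.723 FPKM in VcKO against 2.23, 2.26 and 2.22 FPKM in controls; it passed the filter through its controls alone and so had to differ.

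Trav17, a proximal segment without a near copy, rose. It was at 4.82, 5.93 and 4.93 FPKM in VcKO libraries, against 2.56, 3.31 and 3.44 FPKM in controls, with no overlap and a log2 change of 0.60 (SE 0.113, limma adjusted p = 0.0179). The call held in 3 of 6 fits that left out 1 library (largest limma adjusted p = 0.0610). Trav20, nearest to Trac, was at 0.958, 1.80 and 0.699 FPKM in VcKO and 0.730, 1.23 and 1.66 FPKM in controls, which overlap. Trav5-4, another strong proximal segment, was at 14.7, 13.3 and 14.3 FPKM in VcKO and 12.2, 16.7 and 16.7 FPKM in controls, also overlapping. The distal Trav5d-4 shares 98.3% of the sequence of Trav5-4, so the value of Trav5-4 is uncertain. Position was no full guide, for Trav12-1, a proximal member 682.3 kb before Trac, fell as far as the distal ones: 2.50, 1.49 and 2.93 FPKM in VcKO, against 14.6, 10.6 and 8.38 FPKM in controls (log2 change −1.87, limma adjusted p = 0.00532). The distal Trav12d-1 shares 95.7% of its sequence, however, so the value of Trav12-1 is uncertain. Trav13-2, the highest Trav of most control libraries, was at 10.04, 10.2 and 11.9 FPKM in VcKO against 15.9, 17.3 and 14.8 FPKM in controls (log2 change −0.54, limma adjusted p = 0.0115). Its value is uncertain too, since the middle Trav13d-4 shares 96.98% of its sequence.

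Over the whole family, 113 of the 154 members reached 1 FPKM in 3 libraries or more and were tested: 53 of 94 Trav, all 59 Traj and Trac. At an adjusted p under 0.05 (limma, over 10828 genes), 28 members were lower and 1 higher in VcKO at 4 weeks, where 6.08% of all tested genes were lower and 7.63% higher. Leaving out a control library left 7, 9 or 14 calls (without replicates 1, 2 and 3), with 103 to 106 members tested. The 28 comprised 11 distal, 6 middle and 6 proximal Trav and 5 Traj; 6 of the Trav passed the filter through controls alone. Of the 29 called members, 15, all of them Trav, needed controls to pass the filter, and the other 14 did not: Trav17, 8 Trav that were lower and the 5 Traj. All 5 Traj belonged to the 3′ set, namely Traj16, Traj8, Traj5, Traj4 and Traj3, named after their values were seen. The median log2 change over all members, tested or not, was −0.49 for distal, −0.12 for middle and −0.28 for proximal Trav, against −0.01 for all tested genes. All 3 sets hold members at or near 0, which bounds their medians. Too low to be tested were 15 of 32 distal, 17 of 31 middle and 9 of 31 proximal Trav.

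The share of the distal set within all Trav FPKM gave the same order without regard to the total. It was 25.4%, 20.3% and 24.8% in VcKO, against 37.1%, 34.6% and 35.8% in controls at 4 weeks. Among the 13 segments without a near copy it was 26.7%, 14.97% and 25.5% in VcKO, against 62.9%, 50.5% and 55.3% in controls. The VcKO libraries thus lay below all controls in both sets, with a wider gap among the 13 segments. The distal ones among the 13 lie 1553 to 1793 kb before Trac, and their share in controls was higher to begin with. Position, starting share and distinct reads cannot be told apart there. The 5 proximal segments without a near copy summed to 9.84, 10.7 and 10.2 FPKM in VcKO, against 5.71, 8.72 and 7.61 FPKM in controls, while the 5 distal ones summed to 9.79, 3.60 and 8.09 FPKM in VcKO, against 38.2, 31.4 and 31.2 FPKM in controls.

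**Figure D2:**
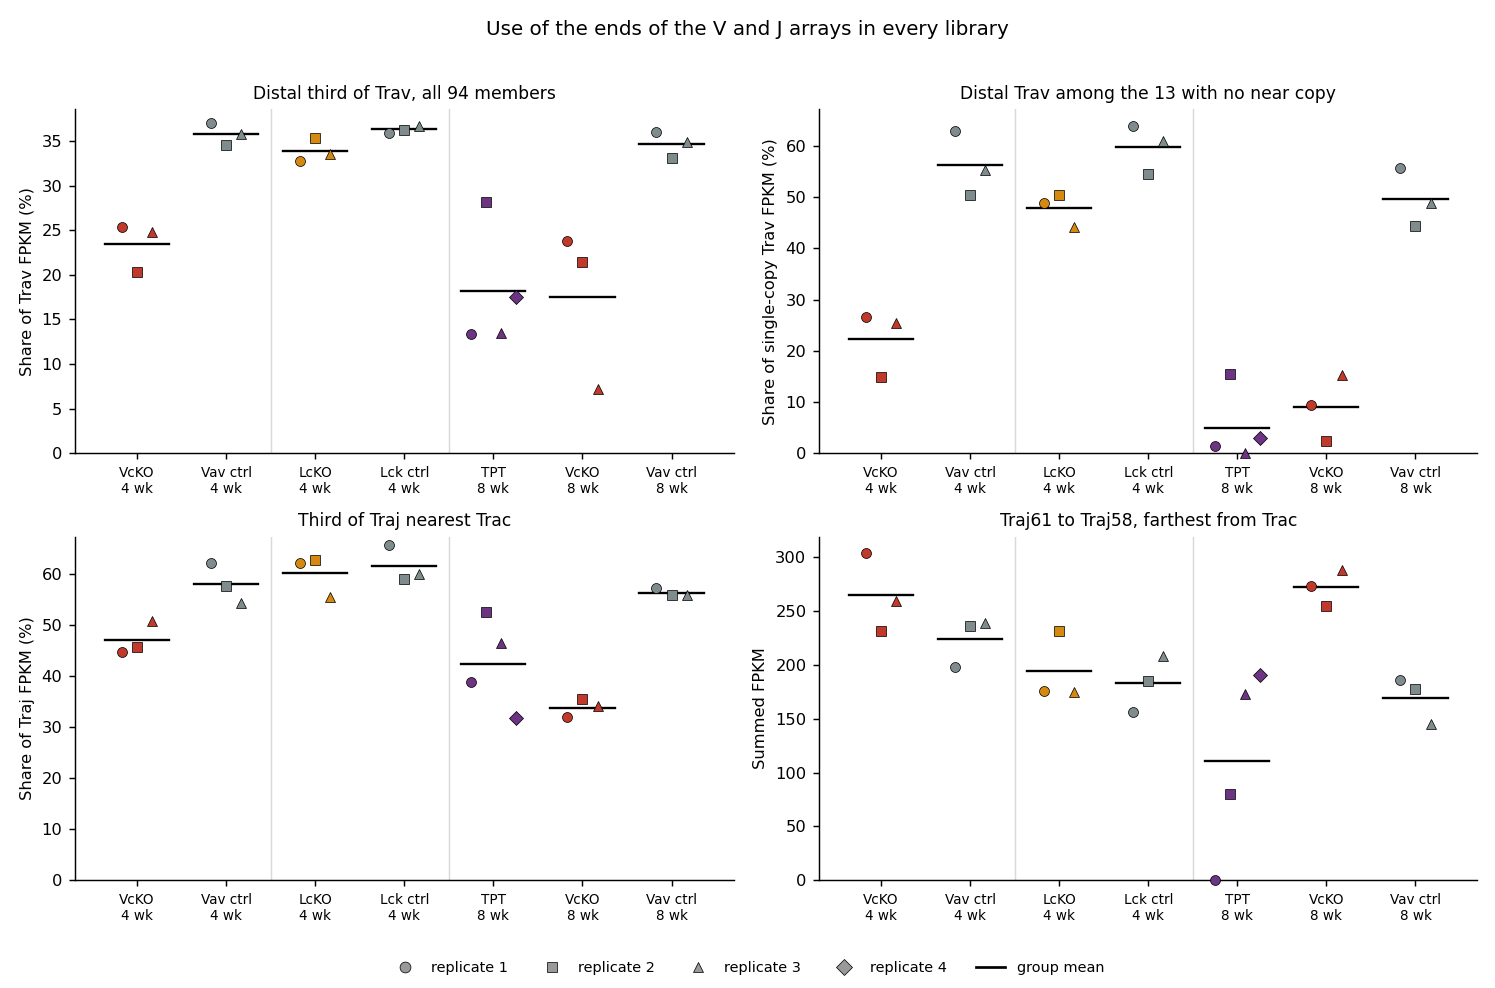
Each symbol is a library, by replicate number, and each bar a group mean, for the 7 groups on the horizontal axes. The vertical axes give, in percent, the share of the 32 distal Trav in all Trav FPKM (top left), the share of distal members among the 13 Trav without a near copy (top right) and the share of the 19 Traj nearest Trac in all Traj FPKM (bottom left), and in FPKM the sum of Traj61 to Traj58 (bottom right). VcKO and TPT libraries lie below their controls in the first 3 plots, and the 3 VcKO libraries at 8 weeks lie above theirs in the last, with TPT replicate 1 at 0.

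By level, the J array showed the same tilt at 4 weeks, with less change at its 5′ end. A J level counts all reads given to a segment, so it is not a measure of J use in joined receptors alone. Traj61, Traj60 and Traj1, annotated as pseudogenes, were among the J segments with the highest mean level. Which RNA gave the J reads was not tested. The share of the 3′ set in all Traj FPKM was 44.7%, 45.8% and 50.8% in VcKO, against 62.2%, 57.7% and 54.3% in controls. Its summed level was 372, 571 and 492 FPKM in VcKO, against 1127, 682 and 726 FPKM in controls, while that of the 5′ set was 346, 356 and 322 FPKM in VcKO and 312, 301 and 325 FPKM in controls. The 3′ sum was below every control, and the 5′ sums overlapped. Of the 19 3′ members, 13 were lower in all 3 VcKO libraries than in any control and none was higher, where 18.7% of all tested genes were lower in that sense. None of the 20 5′ members was lower in that sense and 1, Traj58, was higher, where 19.2% of all tested genes were. Traj2 was at 41.5, 48.7 and 60.8 FPKM in VcKO against 108, 70.4 and 78.0 FPKM in controls, with a log2 change of −0.75 that missed the threshold (limma adjusted p = 0.0511).

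The first 4 segments of the array, Traj61 to Traj58, lie next to the T early alpha promoter and gave a large part of the J reads. Traj61 was at 146, 87.4 and 102 FPKM in VcKO and 74.9, 110 and 77.8 FPKM in controls at 4 weeks, which overlap (limma adjusted p = 0.362). Summed, the 4 were at 304, 232 and 259 FPKM in VcKO and 198, 236 and 238 FPKM in controls. Without them, the mean share of the 3′ set was 65.4% in VcKO and 69.3% in controls, a difference of −3.98 percentage points in place of −11.0, and the libraries overlapped. The J shares at 4 weeks thus rest in large part on these 4 segments, 2 of which are annotated as pseudogenes; the 13 3′ members named above were lower by their own levels.

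Deletion with Lck-Cre left the segments closer to their controls. The LcKO and WT (L) libraries held 5.49 to 16.3 M reads and the 4-week Vav libraries 31.1 to 37.5 M, so Cre line and depth cannot be told apart in the number of calls. Of 113 tested members, 2 were lower and none higher (limma, adjusted p under 0.05; 10 members at an unadjusted p under 0.05), where 0.804% of all 10946 tested genes were lower and 0.201% higher. Trav10n, a middle segment, was at 1.46, 1.59 and 1.54 FPKM in LcKO, against 4.13, 3.04 and 4.38 FPKM in controls (log2 change −0.93, limma adjusted p = 0.0282). Trav6-5, a proximal segment, was at 0.811, 1.03 and 0.930 FPKM in LcKO, against 2.55, 2.68 and 2.60 FPKM in controls. Both have near copies, and both lay below every control. Trav6-5 reached 1 FPKM in 1 LcKO library and passed the filter through its controls, so its call is no more than its levels show. Leaving out any 1 library left 1 call, or 0 without control replicate 1 or 3. The distal Trav2 was at 11.49, 11.2 and 8.10 FPKM in LcKO and 10.1, 10.7 and 15.95 FPKM in controls, which overlap (limma adjusted p = 0.697). Trav17 was at 5.35, 4.84 and 3.33 FPKM in LcKO and 3.18, 2.25 and 2.93 FPKM in controls, higher in every LcKO library, with a log2 change of 0.53 that missed the threshold (limma adjusted p = 0.243). Its Vav effect minus its Lck effect was 0.07 (SE 0.216, limma adjusted p = 0.917). Of all 154 members, 8 were lower in every LcKO library than in any control and 2 higher, where 8.27% of all tested genes were lower and 11.7% higher in that sense. The 154 include members too low to be tested, so the count and the shares do not have the same base.

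The distal share was nonetheless lower in LcKO in every library, at 32.7%, 35.3% and 33.5% against 35.9%, 36.2% and 36.7% in controls. Among the 13 Trav without a near copy it was 48.9%, 50.4% and 44.2% in LcKO, against 64.0%, 54.6% and 61.0% in controls. The first gap is 2.46 percentage points and the second 12.02, both smaller than in VcKO. The share of the 3′ J set, 62.1%, 62.8% and 55.4% in LcKO and 65.6%, 58.9% and 60.05% in controls, overlapped. LcKO replicate 2 was the shallowest library, with 5.49 M reads.

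The Vav effect was set against the Lck effect in a fit over the 12 libraries of both 4-week tables. It was more negative for 5 members and more positive for none (limma, adjusted p under 0.05), where 1.65% of all 10541 tested genes were more negative. They were Trav2, with a difference of the log2 changes of −1.59 (SE 0.241, limma adjusted p = 0.00668), Trav12-1 with −1.62 (limma adjusted p = 0.0362), Trav3-1 with −0.84 (limma adjusted p = 0.0369), and Trav5-1 and Trav6d-3, which needed control libraries to pass the filter in VcKO. All but Trav12-1, which has a distal near copy, are distal. Of the distal ones, Trav3-1 and Trav6d-3 have near copies outside the distal set. These are the proximal Trav3-4 (96.6%) and the middle Trav6-3 (99.7%), so the values of Trav3-1 and Trav6d-3 are uncertain as well. Leaving out 1 library left 1 to 7 calls, with 1 without WT (V) replicate 1 or 2, 2 without WT (V) replicate 3, LcKO replicate 2 or WT (L) replicate 2, and 3 without LcKO replicate 3 or WT (L) replicate 1 or 3.

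**Figure D3:**
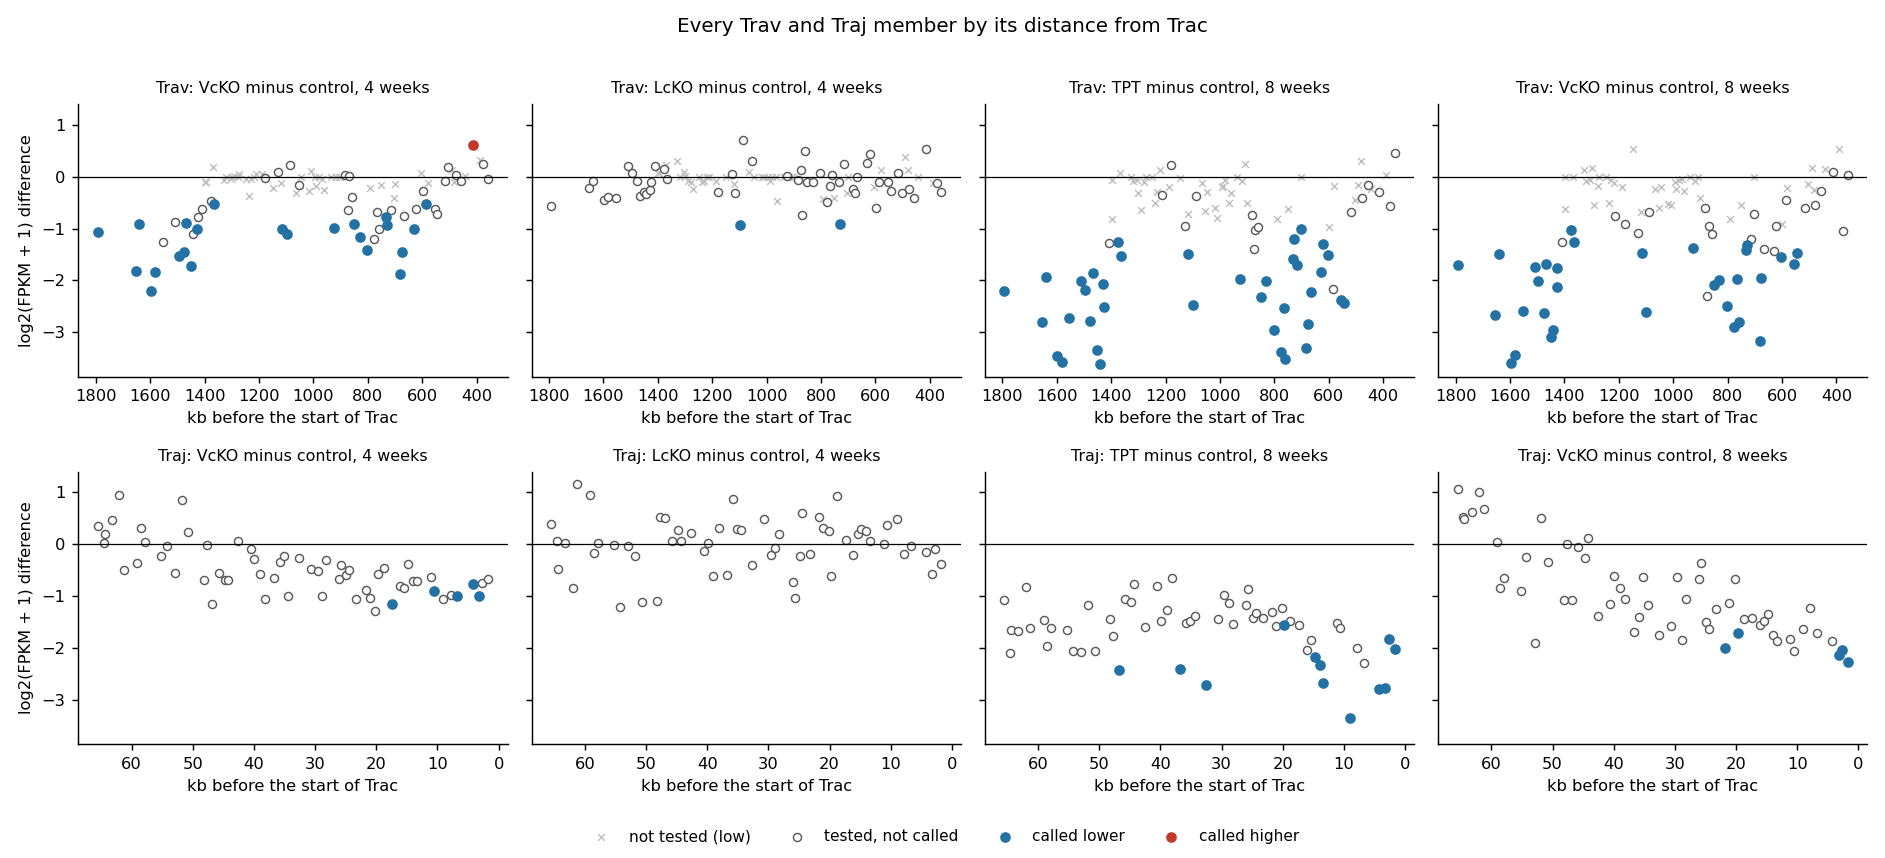
Difference of the group means of log2(FPKM + 1), knockout or TPT minus control, for every Trav (top) and Traj (bottom) member against its distance in kb before the start of Trac, with the far end of each array on the left; filled points passed the test (limma, adjusted p under 0.05), open ones did not, and crosses were too low to be tested. In VcKO at 8 weeks (right) the Traj differences run downward toward Trac, where the 3′ set has a median of −1.71 and the 5′ set of −0.03; in LcKO (second column) both medians are near 0.

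At 8 weeks, several distal V segments were near 0 in TPT and VcKO thymocytes, among them Trav5-1, Trav6-1 and Trav1, while Trav3-1 was lower than in controls but kept a level. Both are compared with the same 3 controls, so their values stand side by side and are not independent. Trav5-1 was at 0.214, 1.04, 0 and 0 FPKM in TPT and 0.304, 0 and 0.155 FPKM in VcKO, against 13.8, 12.1 and 12.6 FPKM in controls. Trav2 was at 1.80, 3.14, 0 and 0.571 FPKM in TPT and 1.93, 0.428 and 1.80 FPKM in VcKO, against 17.5, 11.4 and 12.3 FPKM in controls, a change of −2.81 in TPT (limma adjusted p = 0.00728) and −2.67 in VcKO (limma adjusted p = 0.0129). Trav8d-1 was at 0.551, 0.511, 0 and 0.155 FPKM in TPT and 2.35, 0.174 and 1.07 FPKM in VcKO, against 17.0, 13.2 and 14.1 FPKM in controls. Every TPT and VcKO library lay below every control for these 3 genes. Of the 3, Trav8d-1 has a near copy, the proximal Trav8-1 (98.8%), so its value is uncertain. Trav3-1 was at 4.06, 6.25, 4.44 and 4.33 FPKM in TPT and 9.89, 8.11 and 3.87 FPKM in VcKO, against 19.6, 22.1 and 21.3 FPKM in controls, also without overlap, a change of −1.94 in TPT (SE 0.253, limma adjusted p = 0.00212) and −1.48 in VcKO (SE 0.270, limma adjusted p = 0.012).

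Trav6-1 was listed at 0 in all 4 TPT libraries and at 0.154, 0 and 0.157 FPKM in VcKO, against 11.96, 8.19 and 13.2 FPKM in controls. Trav1 was listed at 0 in all 4 TPT libraries and at 0.748, 0.0997 and 0.457 FPKM in VcKO, against 3.51, 4.76 and 2.72 FPKM in controls. Trav1 and Trav6-1, like Trav7d-4 and Trav6d-3, passed the filter through their controls alone and had to differ. Trav5-1, Trav8d-1 and Trav12-1 reached 1 FPKM in fewer than 3 of the 7 TPT and VcKO libraries and needed controls to pass it. The levels of all of them at 8 weeks are therefore given without a fold change. Proximal members split. Trav12-1, which has the distal near copy Trav12d-1, was at 0, 1.63, 0.143 and 0 FPKM in TPT and 1.06, 0 and 0.463 FPKM in VcKO, against 12.4, 13.4 and 10.3 FPKM in controls. Trav7-3 and Trav7-4, proximal too but near copies of distal Trav7d-3 and Trav7d-4, were at 0 to 0.731 and 0 to 0.689 FPKM in TPT and 0 to 2.08 and 0.947 to 1.55 FPKM in VcKO, against 8.97 to 13.9 and 10.6 to 18.7 FPKM in controls.

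Trav17 overlapped with controls. It was at 0, 11.7, 3.79 and 7.67 FPKM in TPT and 4.42, 8.89 and 3.56 FPKM in VcKO, and at 4.46, 4.43 and 5.88 FPKM in controls (limma adjusted p = 0.953 in VcKO). Trav5-4 was at 9.22, 5.22, 14.4 and 9.59 FPKM in TPT and 12.5, 14.2 and 4.82 FPKM in VcKO, and at 16.5, 12.9 and 16.1 FPKM in controls (limma adjusted p = 0.333 in VcKO). The share of the distal set in all Trav was 13.4%, 28.2%, 13.5% and 17.5% in TPT and 23.8%, 21.4% and 7.19% in VcKO, against 36.0%, 33.1% and 34.8% in controls. Among the 13 Trav without a near copy it was 1.42%, 15.4%, 0% and 2.87% in TPT and 9.39%, 2.46% and 15.3% in VcKO, against 55.7%, 44.4% and 48.8% in controls. The low 7.19% belongs to VcKO replicate 3, in which Trav13-2 alone took most of the V reads; without that library the mean distal share of VcKO lay 12.04 percentage points under controls in place of 17.2. The 13.4% and 1.42% belong to TPT replicate 1, in which middle members held 94.7% of the FPKM of the 13 segments. Its distal Trav summed to 32.0 FPKM, against 14.6 to 19.3 FPKM in the other TPT libraries and 144 to 156 FPKM in controls. Its low distal share is thus not a lower distal level than in other TPT libraries.

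At an adjusted p under 0.05 (limma, over 11632 genes), 50 members were lower and none higher in TPT, where 4.6% of all tested genes were lower and 4.59% higher. In VcKO at 8 weeks, 38 were lower and none higher, where 4.45% of all tested genes were lower and 4.65% higher. The 50 comprised 16 distal, 6 middle and 15 proximal Trav, 12 Traj and Trac, and the 38 comprised 16 distal, 6 middle and 10 proximal Trav, 5 Traj and Trac. In both, 15 Trav passed the filter through controls alone. Counting also those with 1 or 2 TPT or VcKO libraries at 1 FPKM, 30 of the 50 called in TPT and 26 of the 38 in VcKO needed controls to pass it, and 20 and 12 did not. The 20 were 8 Trav, 11 Traj and Trac, and the 12 were 7 Trav, 4 Traj and Trac. Without control replicate 1, 2 or 3 the calls came to 14, 16 and 19 in TPT and to 7, 7 and 8 in VcKO, with 98 members tested; without VcKO replicate 1 they came to 25 in VcKO, and without TPT replicate 3 to 75 in TPT. The median log2 change over all members was −1.27 in TPT and −1.14 in VcKO for distal, −0.61 and −0.60 for middle, and −1.01 and −0.91 for proximal Trav, against −0.01 in TPT and 0.00 in VcKO for all tested genes.

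These fits share one spread over TPT, VcKO and control libraries, and TPT libraries varied most. With the 6 VcKO and control libraries alone, a fit added after the data were seen, 68 members were lower and 1 was higher in VcKO (limma, adjusted p under 0.05), where 22.8% of 10958 tested genes were lower and 22.9% higher. The 68 comprised 18 distal, 10 middle and 14 proximal Trav, Traj of all 3 sets and Trac. Of the 69 called there, 32 reached 1 FPKM in fewer than 3 VcKO libraries and needed controls to pass the filter, of which 31 were Trav. Among Traj, 15 of the 19 3′ members, 9 of the 20 middle ones and 1 of the 20 5′ ones were lower. The member that rose was Traj61.

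Along the J array, the change in VcKO at 8 weeks ran from higher at the 5′ end to lower next to Trac. Traj61 was at 84.8, 92.8 and 94.5 FPKM in VcKO, against 57.0, 37.2 and 36.9 FPKM in controls, above all of them. Its log2 change of 1.07 had a limma adjusted p of 0.633 in the fit with TPT, where TPT libraries ranged from 0 to 80.8 FPKM, and of 0.00384 with the 6 VcKO and control libraries (SE 1.39 and 0.173). In the fit of 6 libraries, 22.9% of all tested genes were called higher. The sum of Traj61 to Traj58 was 274, 254 and 288 FPKM in VcKO, against 186, 178 and 145 FPKM in controls. At the other end, Traj1 was at 32.9, 33.5 and 33.5 FPKM in VcKO, against 158, 222 and 126 FPKM in controls (log2 change −2.27, SE 0.382, limma adjusted p = 0.00852). Traj2 was at 12.7, 38.0 and 20.1 FPKM in VcKO, against 109, 88.1 and 79.1 FPKM in controls (log2 change −2.04, limma adjusted p = 0.0336). The annotated length of Traj1, 29 bases, did not give whole reads, so its level cannot be set against those of other segments.

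The share of the 3′ set in all Traj FPKM was 31.9%, 35.5% and 34.1% in VcKO at 8 weeks, against 57.3%, 55.8% and 55.9% in controls, and that of the 5′ set was 48.0%, 38.6% and 51.1% in VcKO, against 19.4%, 17.0% and 19.4% in controls. The groups are far apart in both. Without Traj61 to Traj58 the mean 3′ share was 48.9% in VcKO and 62.2% in controls, still without overlap. Of the 19 3′ members, 16 were lower in every VcKO library than in any control and none higher, and of the 20 5′ members 2 were lower and 2, Traj61 and Traj58, higher, where 28.7% of all tested genes were lower and 28.9% higher in that sense. The median log2 change over all members was −0.03 for the 5′, −1.21 for the middle and −1.71 for the 3′ set.

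In TPT the 3′ J segments were low too, whereas at the 5′ end the libraries differed. The summed 5′ set was at 15.1, 115, 370 and 263 FPKM in TPT and 313, 386 and 319 FPKM in controls, which overlap. Over the group means the median log2 change was −1.64 for the 5′, −1.40 for the middle and −2.001 for the 3′ set; TPT replicate 1, at 0 in 16 of the first 17 segments, enters the 5′ value. Traj7 was at 2.49, 3.46, 11.6 and 7.34 FPKM in TPT, against 47.3, 81.3 and 68.3 FPKM in controls (log2 change −3.35, SE 0.419, limma adjusted p = 0.00169), and at 15.04, 24.8 and 20.7 FPKM in VcKO. The 3′ share was 38.8%, 52.5%, 46.6% and 31.8% in TPT, against the 55.8% to 57.3% of controls; without Traj61 to Traj58 the libraries overlapped, at means of 50.7% in TPT and 62.2% in controls. Of the 19 3′ members, 11 were lower in every TPT library than in any control, where 12.9% of all tested genes were lower in that sense.

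Set against each other, TPT and VcKO at 8 weeks gave no call in either direction for any member or any other gene (limma, adjusted p under 0.05; 9 members and 681 of all genes at an unadjusted p under 0.05). The smallest p-values belonged to Traj7, with a log2 difference of TPT minus VcKO of −1.71, Traj55 with −1.51 and Trav7-4 with −0.71, at limma adjusted p of 0.652, 0.732 and 0.797. Trac differed by −0.29 (limma adjusted p = 0.858). Of all 154 members, 10 were lower in every TPT library than in any VcKO library, among them 4 of the 20 5′ Traj, and none was higher, where 2.53% of all tested genes were lower and 3.46% higher in that sense. The 154 again include members too low to be tested, which the shares leave out. With 4 and 3 libraries and the spread among TPT, this does not show that the groups are alike.

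TPT libraries differed from each other along the J array. TPT replicate 1 had 1 read in the 17 segments from Traj61 to Traj44, at Traj53, and 16 of these segments were at 0. The other TPT libraries had 136, 409 and 251 reads there, VcKO libraries 452, 380 and 435, and controls 313, 227 and 365. In the first 4 segments TPT replicate 1 had no read, which allows up to 1.14% of its 263 J reads (3 reads, counting error only). From Traj43 on it had 262 reads, of which Traj39 gave 45 and Traj40 16. Traj39 was at 52.4 FPKM in that library, against 20.8 to 24.9 FPKM in controls. The bounds of this stretch were chosen after the values were seen.

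TPT replicate 2 kept reads in the first 4 segments and was low from Traj55 on, with Traj55, Traj54, Traj52, Traj45, Traj35 and Traj33 at 0. TPT replicate 3 had no read in Traj57, Traj56 and Traj55, and high values in single segments further on, such as the 93 reads in Traj28. Traj14, whose annotated length gave no whole reads, was at 118 FPKM there, against 4.44 to 18.6 FPKM in the other TPT libraries and 67.1 to 69.0 FPKM in controls. TPT replicate 4 lay below every control in all 19 3′ segments and above them at Traj61 alone, at 80.8 FPKM.

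**Figure D4:**
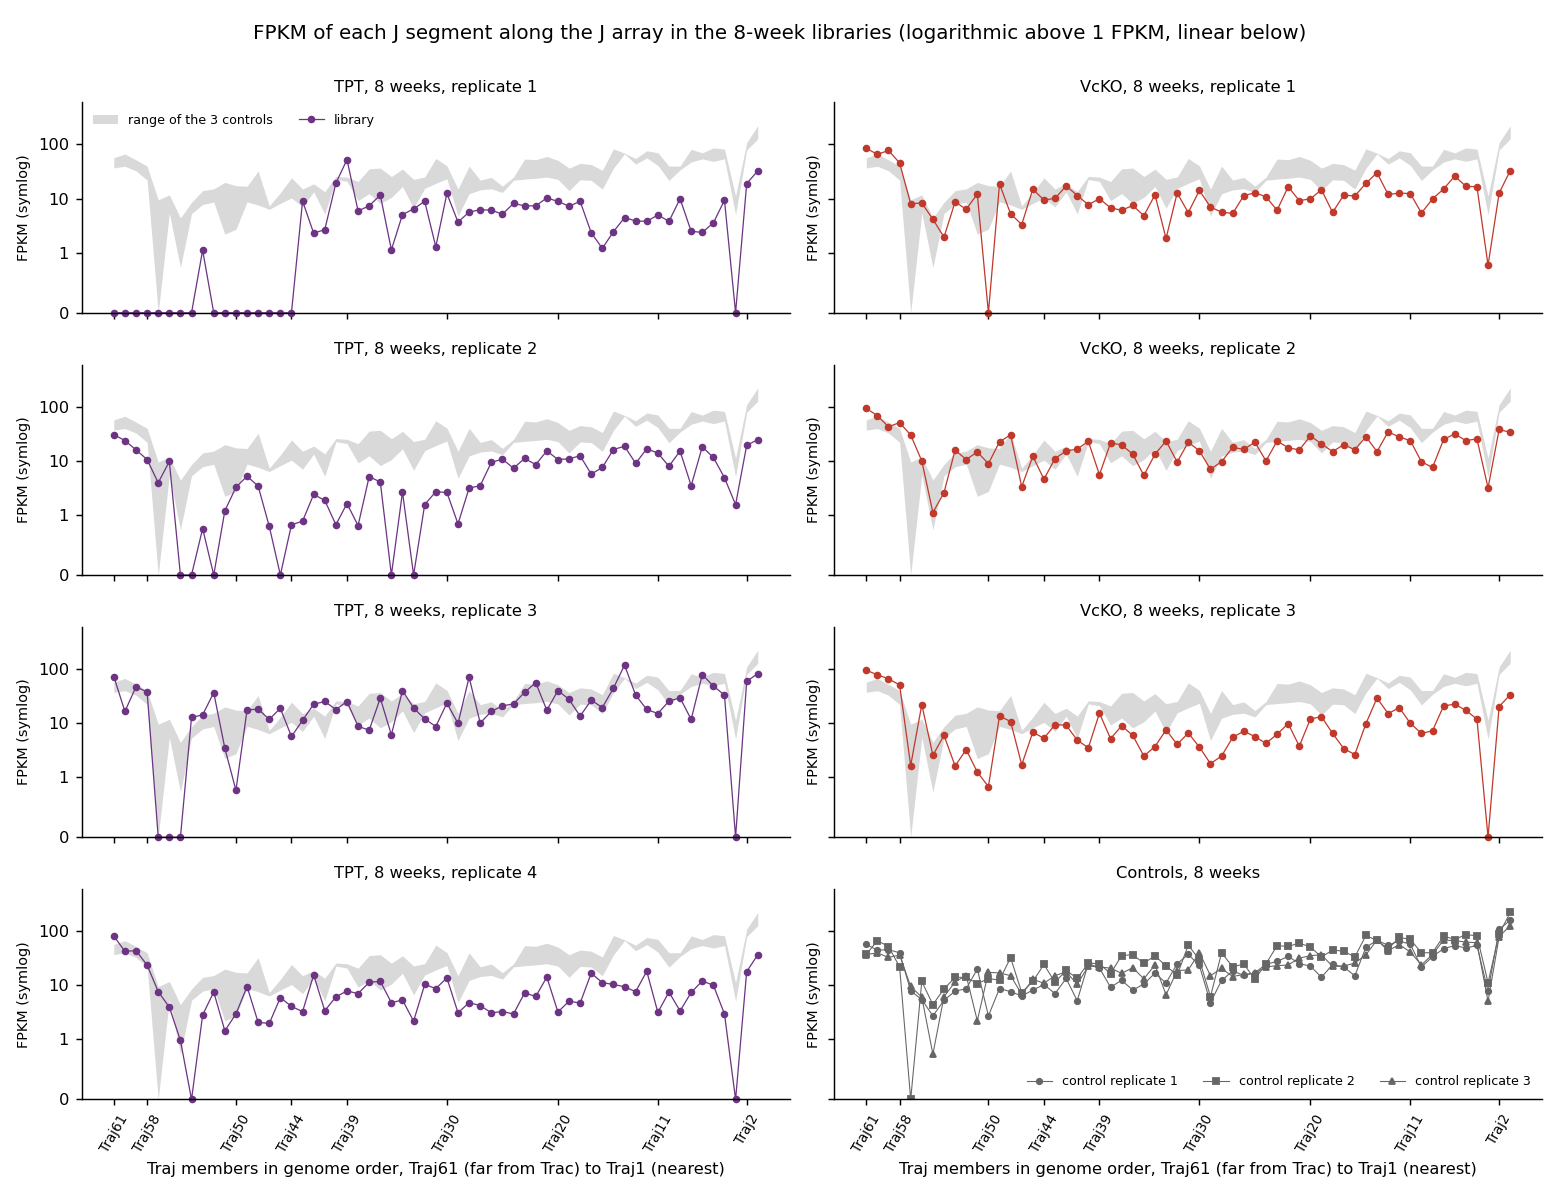
FPKM of each of the 59 Traj members, in genome order from Traj61 (left) to Traj1 (right, next to Trac), in each TPT and VcKO library at 8 weeks and in the 3 controls; the vertical axis is logarithmic above 1 FPKM and linear below, and the grey band is the range of the controls. TPT replicate 1 lies at 0 in 16 of the 17 segments from Traj61 to Traj44, and all 3 VcKO libraries lie above the band at Traj61 and below it near Trac.

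V use was uneven in the same libraries. The effective number of Trav, the number of equally used segments that would give the same Shannon entropy, was 13.5, 25.3, 22.2 and 23.7 in TPT and 31.0, 27.4 and 5.80 in VcKO at 8 weeks, against 47.5, 44.5 and 47.7 in controls. At 4 weeks it was 40.7, 31.3 and 41.6 in VcKO against 43.3, 42.9 and 43.5 in controls, and 41.6, 38.4 and 39.97 in LcKO against 41.6, 42.9 and 40.7 in controls. VcKO libraries lay below their controls at both ages, TPT libraries too, and LcKO libraries overlapped. In VcKO replicate 3 at 8 weeks, Trav13-2 was at 215 FPKM, 68.8% of all Trav, against 5.77 and 3.58 FPKM in the other 2 VcKO libraries and 21.4 to 28.9 FPKM in controls. The summed Traj level of that library, 760 FPKM, was the lowest of its group, and its highest J segments were Traj61, Traj60 and Traj59. The middle Trav13d-4 shares 96.98% of the sequence of Trav13-2, so how reads were divided between them is uncertain.

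TPT replicate 1 had 2 middle segments on top, Trav8d-2 at 55.8 FPKM (23.3% of all Trav) and Trav8n-2 at 52.8 FPKM (22.1%). Neither has a copy at 95% identity, but the nearest to both is Trav8-2, at 94.4% for Trav8d-2 and 94.96% for Trav8n-2. How reads were divided among these related segments is therefore uncertain. Trav8d-2 was at 0.147 to 1.37 FPKM in the other TPT libraries and 2.39 to 3.04 FPKM in controls, and Trav8n-2 at 0.372 to 4.72 FPKM in the other TPT libraries and 10.8 to 13.5 FPKM in controls. In TPT replicate 2 the proximal Trav17 led, with 17.0% of all Trav. The top segment of control libraries held 4.94% to 6.66%, at 4 and 8 weeks.

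**Figure D5:**
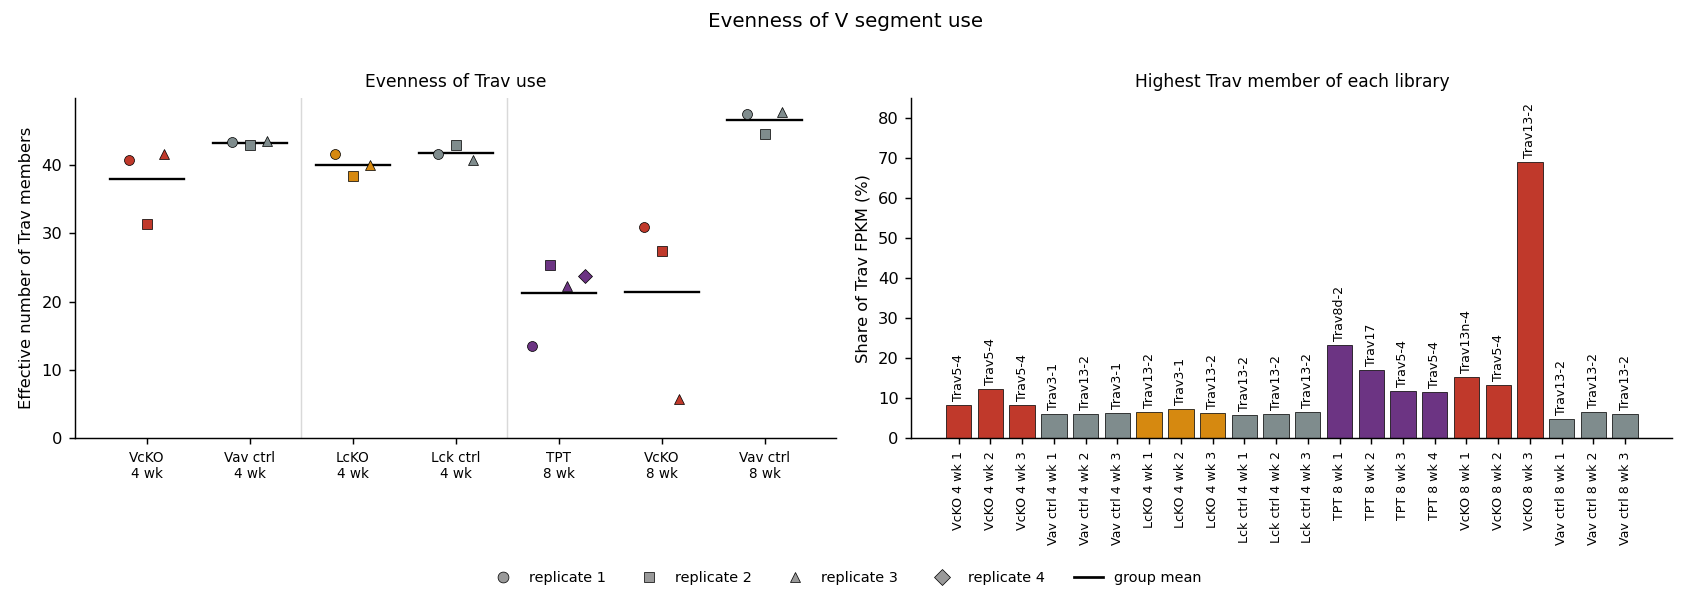
Left, the effective number of Trav members (exponential of the Shannon entropy of their FPKM shares) in each library of the 7 groups, with the bar at the group mean; right, the share in percent of the highest Trav member of each library, with its name. Trav13-2 holds 68.8% in VcKO replicate 3 at 8 weeks, and Trav8d-2 23.3% in TPT replicate 1.

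The Vav effect at 8 weeks was set against that at 4 weeks in a fit over 12 libraries. It was more negative for 15 members and more positive for none (limma, adjusted p under 0.05; 110 members tested), where 9.37% of all 10489 tested genes were more negative and 8.87% more positive. Trav8n-2 had a difference of the log2 changes of −1.66 (SE 0.217, limma adjusted p = 0.00178) and Traj1 of −1.59 (limma adjusted p = 0.011). The 15 comprised 13 Trav and 2 Traj, both of the 3′ set. Of the 13 Trav, 10 needed controls to pass the filter at 1 age or both, and Trav7n-4, Trav6n-6 and Trav8n-2 did not. Leaving out 1 library gave 28 calls without VcKO replicate 2 of the 4-week table, 6 or 7 without its replicate 3 or 1, 8 or 6 without its control replicate 2 or 3, and 7, 7 and 6 without the control replicates of 8 weeks. The ages come from separate tables, whose controls differ too: Trac was at 986 to 1044 FPKM in controls at 8 weeks and 749 to 775 FPKM in controls at 4 weeks, and Trav6d-7, named after its values were seen, was at 3.46 to 16.7 FPKM in the 8-week libraries and at most 0.194 FPKM in the 4-week ones.

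Trav11 and Trav11d, the V segments of invariant natural killer T cells, did not exceed 0.256 and 0.367 FPKM in any library. Their annotated sequences are 100% identical where they align, so reads of either could have been given to the other or to none, and the values are uncertain. Their J segment, Traj18, was at 8.89, 12.4, 13.4 and 4.69 FPKM in TPT and 5.53, 14.8 and 6.44 FPKM in VcKO, against 24.2, 44.7 and 22.3 FPKM in controls at 8 weeks; it fell in both (limma adjusted p = 0.0474 and 0.0435), as part of the 3′ set. Traj33, the J segment of mucosal-associated invariant T cells, overlapped with controls in all 4 comparisons with controls, at 1.83 to 23.2 FPKM in VcKO and 6.66 to 22.7 FPKM in controls at 8 weeks. The 4 marker genes of invariant natural killer T cells outside the family summed to 2.56 to 3.28 FPKM in VcKO against 0.765 to 1.05 FPKM in controls at 4 weeks, to 0.913 to 1.45 FPKM in LcKO against 1.12 to 1.37 FPKM in controls, and to 2.29 to 10.8 FPKM in TPT and 3.94 to 4.55 FPKM in VcKO against 0.787 to 1.18 FPKM in controls at 8 weeks.

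Of 30 genes of receptor assembly and recombination outside the family, 2 were higher and 3 lower in VcKO at 4 weeks, 0 and 1 in LcKO, 0 and 5 in TPT and 2 and 3 in VcKO at 8 weeks (limma, adjusted p under 0.05). Of all tested genes, 7.63% were higher and 6.08% lower in VcKO at 4 weeks, 0.201% and 0.804% in LcKO, 4.59% and 4.6% in TPT, and 4.65% and 4.45% in VcKO at 8 weeks. The median log2 change of the 30 genes was −0.15 and −0.07 in VcKO and LcKO at 4 weeks, and −0.37 and −0.21 in TPT and VcKO at 8 weeks. Rag2, a subunit of the recombinase, was at 40.7, 35.4 and 45.0 FPKM in VcKO against 61.2, 65.0 and 59.3 FPKM in controls at 4 weeks. At 8 weeks it was at 2.80, 1.84, 10.01 and 13.2 FPKM in TPT and 5.31, 4.53 and 5.93 FPKM in VcKO, against 59.4, 63.0 and 61.5 FPKM in controls. It fell in VcKO at both ages and in TPT, by 3.32 on the log2 scale in VcKO and by 3.28 in TPT at 8 weeks. Rag1, the other subunit, fell with it, by 0.53 in VcKO at 4 weeks, by 1.54 in TPT and by 1.45 in VcKO at 8 weeks. Ptcra, the pre-T alpha chain that pairs with beta before alpha is made, fell by 1.21 in VcKO and by 0.78 in LcKO at 4 weeks. Xrcc6, the Ku70 subunit of end joining, rose by 0.71 at 4 weeks and 1.42 at 8 weeks in VcKO.

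Summed levels of markers of other cells also differed between groups, some higher and some lower. At an adjusted p under 0.05 (limma), 3 of 4 gamma-delta, 1 of 1 double-negative and 5 of 5 single-positive genes tested were higher in VcKO at 4 weeks. In VcKO at 8 weeks none of the 4, 2 and 5 tested was called, in the fit that shares its spread with TPT. In TPT 1 of 4 gamma-delta genes was higher, and none of the 2 and 5 others was called. In LcKO 1 of 4 single-positive genes tested was higher. Of B cell genes tested, 1 of 2 was lower in VcKO at 4 weeks, and 2 of 2 in TPT and in VcKO at 8 weeks. The 1 stromal gene tested was lower in VcKO at 4 weeks. The 1 invariant natural killer T cell gene tested was higher in VcKO at 4 weeks and in TPT. The 5 gamma-delta T cell genes in the files summed to 27.9 to 83.4 FPKM in VcKO against 3.71 to 3.90 FPKM in controls at 4 weeks, and to 36.2 to 889 FPKM in TPT and 14.3 to 180 FPKM in VcKO against 4.36 to 4.97 FPKM in controls at 8 weeks. Those of 3 double-negative genes summed to 13.6 to 31.1 FPKM in VcKO against 2.13 to 2.52 FPKM in controls at 4 weeks, and to 3.69 to 130 FPKM in TPT and 5.38 to 25.2 FPKM in VcKO against 2.26 to 2.78 FPKM in controls at 8 weeks. Those of 5 mature single-positive genes summed to 38.4 to 40.8 FPKM in VcKO against 20.4 to 21.1 FPKM in controls at 4 weeks, and to 35.7 to 152 FPKM in TPT and 46.9 to 69.8 FPKM in VcKO against 26.3 to 30.4 FPKM in controls at 8 weeks. In LcKO the 3 lists stood at 4.11 to 9.25, 4.45 to 5.87 and 29.1 to 31.3 FPKM, against 2.51 to 8.05, 2.41 to 3.55 and 25.3 to 29.2 FPKM in controls. The 5 B cell genes summed to 69.4 to 138 FPKM in VcKO against 168 to 183 FPKM in controls at 4 weeks, to 154 to 168 FPKM in LcKO against 169.6 to 198 FPKM in controls, and to 96.6 to 123 FPKM in TPT and 95.2 to 128 FPKM in VcKO against 184 to 221 FPKM in controls at 8 weeks. Ms4a1, which encodes the B cell surface protein CD20, was at 0 in both VcKO groups, in LcKO and in its controls.

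The 3 erythroid genes summed to 3.43 to 9.19 FPKM in VcKO against 6.02 to 8.27 FPKM in controls at 4 weeks, to 0.240 to 0.587 FPKM in LcKO against 0.424 to 1.81 FPKM in controls, and to 26.9 to 72.6 FPKM in TPT and 3.44 to 16.7 FPKM in VcKO against 13.9 to 30.7 FPKM in controls at 8 weeks. The 3 macrophage genes summed to at most 1.19 FPKM in any 4-week library, and to 0.310 to 16.4 FPKM in TPT and 1.17 to 6.48 FPKM in VcKO against 0.157 to 1.58 FPKM in controls at 8 weeks. The 4 stromal genes summed to 0.541 to 0.679 FPKM in VcKO against 1.39 to 1.60 FPKM in controls at 4 weeks, and to at most 2.41 FPKM in any library. The 3 dendritic cell genes summed to at most 0.666 FPKM. The part of such cells in the values above was not tested.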

How the data were processed

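The authors deposited 3 tables of FPKM for 43430 genes, of which 42546 matched a symbol of GENCODE M21 (GRCm38). Per the labels' protocols, RNA was taken with RNeasy mini kits and libraries with NuGEN Ovation Ultralow kits. The submitters' processing notes name Trimmomatic 0.33, STAR, HTSeq 0.6.1, DESeq2 and mm10, with no role or order. FPKM are no counts, so log2(FPKM + 1) was tested with limma 3.58.1 (trend, R 4.3.3) over all genes that reached 1 FPKM in 3 or more libraries, within each table, at a Benjamini-Hochberg adjusted p of 0.05. The fits were tested on simulated data. TPT, VcKO and control libraries of 8 weeks shared a fit. Read numbers were inferred for Traj alone, where 92.7% to 96.6% of low values were whole reads within 0.05. Shares and sequence identity were computed with Python 3.11.15 and Biopython 1.88.

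Members named are Trac, segments of invariant T cells, the 6 highest of each class, those nearest to and farthest from Trac, and the called members with the largest changes. Others were chosen after their values were seen. Members and lists were chosen with earlier results of these data known. Alternatives were scaling, filter, pseudocount, replicate block and leaving out libraries.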

Additional observations from a re-analysis of the deposited data

Results flagged for a closer look

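Among the 4 TPT libraries, 1 library stood far from the other 3 in 8 of 47 measures looked at, where chance gives about 1 in 20 for a single measure. The measures overlap with each other, so nothing is read from their number. TPT replicate 3 was the highest for the summed 3′ Traj set (719.6 FPKM), Traj2 (58.8 FPKM), Traj14 (118 FPKM) and Trav10n (3.43 FPKM). TPT replicate 1 was the highest for Trav8n-2 (52.8 FPKM), replicate 2 for Trav12-1 (1.63 FPKM) and Trav7d-4 (0.114 FPKM), and replicate 4 for Traj55 (0.982 FPKM). The values of Trav7d-4 and Traj55 are near that of 1 read.

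The Vav effect was more negative than the Lck effect at 4 weeks, on the log2 scale and past the test of the difference (limma), for Trav5-1 (−1.75), Trav12-1 (−1.62), Trav6d-3 (−1.60), Trav2 (−1.59) and Trav3-1 (−0.84). Trav5-1 and Trav6d-3 needed control libraries to pass the filter on low values.

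It was more negative at 8 than at 4 weeks, by the same kind of test, for Trav8d-1 (−1.85), Trav7-4 (−1.79), Trav8n-2 (−1.66), Trav6-1 (−1.60), Traj1 (−1.59), Trav10n (−1.49), Trav5-1 (−1.39), Trav7d-4 (−1.37), Trav12-1 (−1.30), Trav6-4 (−1.29), Trav7d-3 (−1.18), Trav7n-4 (−1.17), Traj8 (−1.15), Trav6n-6 (−0.91) and Trav7-2 (−0.83). Of these 15, all but Trav8n-2, Trav7n-4, Trav6n-6, Traj1 and Traj8 needed control libraries to pass the filter, so their values depend on it. The ages come from separate tables.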

How the results depend on the processing

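Among the named members no called change turned its direction under the alternatives run. The 3′ Traj share of LcKO, the distal Trav share and the evenness of TPT against VcKO, and the Traj sum of LcKO, all with overlapping libraries, turned theirs under some. Robust variance and median-of-ratios scaling left the calls of all 40 named pairs of member and comparison as they were; scaling to a common sum moved the median of all genes to −0.12 in VcKO and −0.10 in TPT at 8 weeks. With no filter, calls came to 14 in VcKO and 1 in LcKO at 4 weeks, 2 for the Vav minus the Lck effect and 8 for the effect of age. With a mean of 5 FPKM or more they came to 15 in VcKO and 1 in LcKO at 4 weeks, and to 17 in TPT and 11 in VcKO at 8 weeks. Without TPT libraries, 69 members were called in VcKO at 8 weeks. Fewer genes are tested, or more low ones, under these filters.

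Replicate numbers did not pair libraries, with correlations of deviations from −0.109 to 0.181. With the replicate block, calls came to 26 in VcKO and 0 in LcKO at 4 weeks, 36 in TPT and 33 in VcKO at 8 weeks, 1 for Vav minus Lck and 12 for age.

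Leaving out 1 library gave 7 to 40 calls in VcKO and 0 to 1 in LcKO at 4 weeks, 14 to 75 in TPT and 7 to 54 in VcKO at 8 weeks, 0 to 0 for TPT against VcKO, 1 to 7 for Vav minus Lck and 6 to 28 for age. The distal Trav share then differed from controls by −13.3 to −10.7 percentage points in VcKO and −3.19 to −1.89 in LcKO at 4 weeks, by −19.9 to −14.9 in TPT and −20.3 to −12.0 in VcKO at 8 weeks, and by −4.47 to 3.82 for TPT against VcKO. The 3′ Traj share differed by −12.8 to −8.91 in VcKO and −2.76 to 0.890 in LcKO, by −17.3 to −10.4 in TPT and −23.3 to −21.5 in VcKO at 8 weeks, and by 5.22 to 12.1 for TPT against VcKO.

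With each array cut into 2 sets, the distal Trav share differed by −10.0 points in VcKO at 4 weeks, −8.27 in TPT (overlapping libraries) and 8.95 for TPT against VcKO, and the 3′ Traj share by −25.6 in VcKO at 8 weeks. With Trav without a near copy alone, it differed by −33.8 in VcKO and −12.0 in LcKO at 4 weeks, and by −44.8 in TPT and −40.6 in VcKO at 8 weeks. The 3′ Traj share differed by −3.98 in VcKO at 4 weeks and −13.3 at 8 weeks without Traj58 to Traj61, and by −20.5 at 8 weeks without the 4 Traj of unmatched length. The cause was not tested.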
